A study of Homo sapiens with 83 samples.

Results

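The comparison set 8 RNA-seq libraries of SHEP MYC-ON cells collected at CT32, CT36, CT56 and CT60, called here the PER-peak hours, against 8 libraries of the same cells collected at CT44, CT48, CT68 and CT72, called the ARNTL-peak hours. These 16 libraries are 16 of the 83 of the series, and they were chosen by condition and hour, in both replicate time series. The hours themselves were chosen with earlier results of these data known, so the clock genes serve as a check of the window names. CT is circadian time, the hours since dexamethasone, a glucocorticoid that brings the clocks of cultured cells to a common phase.

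SHEP is a human neuroblastoma cell line that grows as flat, substrate-adherent cells. The line expresses N-MYC-ER constitutively, a fusion of N-MYC with the hormone-binding part of the estrogen receptor, and 4-hydroxytamoxifen (4OHT) added 24 h before dexamethasone activates it (MYC-ON). The MYC-OFF control carries the same fusion and received ethanol and dexamethasone, so dexamethasone and the transgene are shared by both conditions. MYCN transcript, which includes the transgene, was between 255 and 493 TPM in the 16 libraries, so the fusion was expressed in each of them. TPM measures abundance per transcript length, and since each library's values add up to the same total, its sequencing depth is unknown here. The 8 libraries of a window are 4 hours in each of 2 time series, so a p-value measures the spread among hours and series. The study's methods describe the series as biological replicate experiments.

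The circadian clock of mammalian cells is a feedback loop. CLOCK and BMAL1, the product of ARNTL, bind E-box sequences and switch on the PER and CRY genes, whose proteins then enter the nucleus and inhibit CLOCK and BMAL1. In a second loop the REV-ERB receptors (NR1D1, NR1D2) repress ARNTL and the ROR receptors activate it, while DBP, TEF and HLF activate and NFIL3 represses genes with a D-box. PER and ARNTL transcripts therefore peak at about opposite hours in a running clock, which is why the windows, whose centres lie 12 h apart, carry these names.

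In SHEP MYC-ON no gene passed the test between the windows. Of 14316 genes with a mean of at least 1 TPM, 0 were higher and 0 lower in the PER-peak hours by limma. The call asked for a log2 difference of at least 0.15 with a Benjamini-Hochberg adjusted p no higher than 0.05, and the lowest adjusted p was 0.9998. At an unadjusted p under 0.05 there were 494 genes (3.45%), 386 higher (2.7%) and 108 lower (0.754%). By value the largest clock differences were those of CRY2 and PER2, which were higher in the PER-peak hours by 0.49 ± 0.13 (SE) and 0.43 ± 0.12 (SE) on the log2(TPM + 1) scale. The fitted difference of ARNTL, with a linear drift over CT removed, was small, at -0.07 ± 0.14 (SE). Its observed means were 2.59 TPM in the PER-peak hours and 3.19 TPM in the ARNTL-peak hours. The half-width of the 95% interval of a gene's difference had a median of 0.22 on the log2 scale. That interval is not adjusted for the number of genes tested. Larger changes could therefore also go uncalled, as for EYA3 with a difference of 0.36.

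The 16 libraries show what the label of the windows rests on. Mesenchymal neuroblastoma markers were expressed, with all 14 above a mean of 1 TPM, from PRRX1 at 3.84 to VIM (vimentin) at 3410 TPM. Of 14 adrenergic markers 4 were above 1 TPM, with GATA2 at 38.3, HAND2 at 26.3, GATA3 at 18.5 and KLF7 at 8.87 TPM. PHOX2A, TH, SOX11 and STMN2 were at 0 in all 16 libraries. Of 8 epithelial markers 3 were above 1 TPM, with KRT18 at 924, KRT8 at 780 and CLDN4 at 31.1 TPM. Of 8 blood cell markers 1 was, CD68 at 23.1 TPM. The summed level of the mesenchymal list was 5560 to 6410 TPM in the PER-peak hours and 5290 to 6590 TPM in the ARNTL-peak hours, and that of the blood cell list was 14 to 33.3 and 14.8 to 43.1 TPM. In MYC-OFF cells of the same hours PER2 had a mean of 1.88 TPM in the PER-peak hours and 0.613 TPM in the ARNTL-peak hours, and ARNTL had 13.0 and 16.6 TPM. In MYC-ON the PER part of the label was visible in PER2 by value, at a mean of 5.598 against 3.24 TPM, and for ARNTL no difference was detected.

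One technical measure moved within the comparison. The dependence of expression on gene GC content, as a slope in log2 units per 10 percentage points of GC, was between -0.018 and 0.061 in the 8 replicate 1 libraries. In replicate 2 it was between 0.032 and 0.089 up to CT48, then fell to -0.062, -0.17, -0.21 and -0.22 at CT56, CT60, CT68 and CT72. Over the windows the slope was 0.0012 ± 0.085 (SD, n = 8) in the PER-peak hours and -0.034 ± 0.11 (SD, n = 8) in the ARNTL-peak hours. With this slope as a covariate 704 genes were higher and 165 lower at an unadjusted limma p under 0.05, in place of 386 and 108. Without the replicate 2 libraries of CT56 to CT72 these counts were 263 and 345. No gene was called in either fit, and the cause of these changes was not tested.

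**Figure D1:**
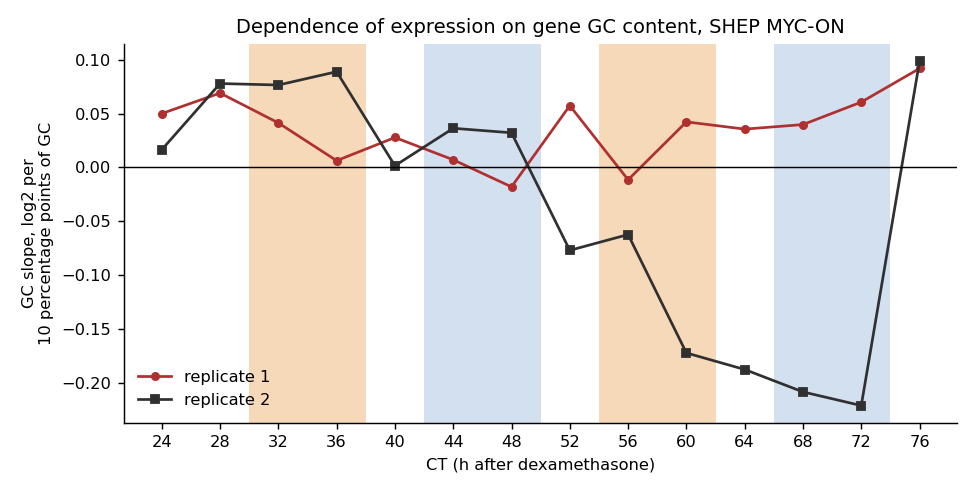
GC slope (y axis, log2 units per 10 percentage points of gene GC content) of each SHEP MYC-ON library against CT (x axis, hours), with 1 line per replicate series, orange bands for the PER-peak hours and blue bands for the ARNTL-peak hours. Replicate 1 stays between -0.018 and 0.092, and replicate 2 falls to -0.22 at CT72 before it returns to 0.099 at CT76.

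The loop acts through short DNA sequences, and promoter matches to them are shown for the 6 clock genes with an unadjusted limma p under 0.05 between the windows. All 16 tested clock genes have a promoter window in RefSeq (GRCh38.p14), 250 bases before to 50 bases after a start, in 23 windows since several genes have more than 1 start. The E-box CACGTG occurs, on either strand, in 7.26% of all 35116 promoter windows and in windows of 5 of the 16 clock genes. The E-box variant CACGTT occurs in 5.34% of windows and in 5 of these genes, and the D-boxes TTATGTAA and TTACGTAA in 0.886% and 0.125% of windows and in 2 and 1 of them. The receptor half-site AGGTCA occurs in 13.8% of windows and in 4 of the genes. The shares are per window and the counts per gene, and a gene with more than 1 window has more places for a match. ARNTL2, RORA and DBP held none of these motifs. PER2 is the gene with TTACGTAA, which begins 3 bases before its start. CACGTG and TTACGTAA read the same on both strands, and the other motifs were searched on each strand. The motifs printed lie 197 bases before the start in PER2, 177 in PER3, 89 in CRY1, 188 in CRY2, 195 in TEF and 187 in CLOCK. Capitals below mark the motif, each sequence reads 5′ to 3′ on the gene's strand, and a match is a description and no evidence of binding.
PER2 (E-box variant, minus strand, chr2:238288782-238288827): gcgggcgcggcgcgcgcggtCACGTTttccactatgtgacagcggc
PER3 (D-box, plus strand, chr1:7784094-7784141): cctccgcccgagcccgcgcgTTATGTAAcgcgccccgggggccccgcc
CRY1 (E-box variant on the opposite strand, minus strand, chr12:107093613-107093658): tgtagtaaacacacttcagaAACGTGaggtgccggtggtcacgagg
CRY2 (E-box variant on the opposite strand, plus strand, chr11:45847267-45847312): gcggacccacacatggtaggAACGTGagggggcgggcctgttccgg
TEF (E-box, plus strand, chr22:41367240-41367285): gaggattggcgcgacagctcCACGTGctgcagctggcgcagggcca
CLOCK (E-box variant, minus strand, chr4:55546094-55546139): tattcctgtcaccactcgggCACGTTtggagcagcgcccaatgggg

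The negative arm of the clock, the PER and CRY genes that inhibit CLOCK and BMAL1, was higher by value in the PER-peak hours in all 5 of its members. None of the 5 was called, against a background of 0% of all tested genes (0 of 14316). At an unadjusted p under 0.05 in the higher direction there were 4 of 5, PER2, PER3, CRY1 and CRY2, where 2.7% of all genes were, and the count was 2 with median-of-ratios rescaling, 2 in replicate 1 alone and 3 in replicate 2 alone. The median log2 difference of the arm was 0.22, beside 0.04 over all genes. The hours are named for PER genes and were chosen with earlier results of these data known. These values are therefore a check of the label and no independent result.

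PER2, on chromosome 2 (238244044 to 238290102, minus strand), is the clock inhibitor whose transcript marks this phase. It was at 6.70, 6.86, 3.97 and 3.59 TPM in replicate 1 and at 7.21, 7.10, 4.69 and 4.67 TPM in replicate 2 at CT32, CT36, CT56 and CT60. At CT44, CT48, CT68 and CT72 it was at 2.70, 4.55, 2.96 and 2.92 TPM in replicate 1 and at 2.91, 3.88, 3.15 and 2.86 TPM in replicate 2. PER2 was thus highest in the first PER-peak window of both series and much closer to the ARNTL-peak hours in the second, and 6 of the 8 PER-peak libraries lay above the highest ARNTL-peak library, that of replicate 1 at CT48. The fitted difference was 0.43 with a 95% interval of 0.18 to 0.69 and an unadjusted limma p of 0.0023 (adjusted p = 0.9998).

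PER2 also fell along the series in both windows, with a linear slope of -0.36 on the log2 scale per 24 h (limma adjusted p = 0.014). This slope matters for every difference here, because the PER-peak hours have a mean of CT46 and the ARNTL-peak hours of CT58, so that a steady drift alone gives a difference between windows. Over all genes 23.2% had a falling and 12.3% a rising CT slope at an adjusted p of at most 0.05. The model therefore carried a linear CT term. To show the fitted difference in parts, 2 comparisons that cancel a linear drift were made in each replicate. The first set the PER-peak windows before and after CT44 and CT48 against that window. The second set CT56 and CT60 against the ARNTL-peak windows before and after. The 2 share libraries. Once the 2 libraries of a window are averaged, the mean of these 4 trend-balanced values is the fitted difference. They are therefore no separate support, and a curved drift is not cancelled. Over all genes 19.4% were higher and 5.97% lower in all 4 values. For PER2 the 4 values were 0.43 and 0.18 in replicate 1 and 0.64 and 0.44 in replicate 2.

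CRY2, on chromosome 11 (45847118 to 45883248), the other repressor with a large difference, ran from 7.31 to 13.6 TPM in the PER-peak hours, with a median of 10.6, and from 4.60 to 8.86 TPM in the ARNTL-peak hours, with a median of 5.78. Of the 8 PER-peak libraries 6 were above every ARNTL-peak library. The difference was 0.49 (95% interval 0.22 to 0.76, unadjusted p = 0.0015), and it was 0.37 in replicate 1 alone and 0.60 in replicate 2 alone, with unadjusted limma p of 0.021 and 0.015. The 4 trend-balanced values of CRY2 were 0.43, 0.32, 0.56 and 0.57.

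PER3 stood at 11.1 to 13.8 TPM in the PER-peak hours and at 7.05 to 12.3 TPM in the ARNTL-peak hours. Its difference of 0.22 ± 0.10 (SE, unadjusted p = 0.049) came mainly from replicate 2, where it was 0.38, while in replicate 1 it was 0.054, and it was 0.14 without the 4 replicate 2 libraries of CT56 to CT72. CRY1 was at a median of 28.3 TPM in the PER-peak and 27.98 TPM in the ARNTL-peak hours, so that the observed levels were level, and its fitted difference of 0.18 ± 0.064 (SE, unadjusted p = 0.014) arose against a rising CT slope of 0.31 per 24 h (adjusted p = 0.00057). PER1, the fast glucocorticoid-responsive PER gene, overlapped, from 32.03 to 66.4 TPM against 24.4 to 64.9 TPM, with a difference of 0.07 ± 0.17 (SE) that turned to -0.031 without replicate 2.

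The positive arm, which drives the loop, gave 1 higher value and 2 near zero. CLOCK, the partner of BMAL1, was at 7.48 to 11.9 TPM (median 9.63) in the PER-peak and 6.92 to 9.27 TPM (median 7.28) in the ARNTL-peak hours, and 5 of 8 PER-peak libraries were above every ARNTL-peak one. Its difference was 0.23 ± 0.091 (SE, unadjusted p = 0.023), positive in all 4 trend-balanced values, and was not called. ARNTL was at 1.501, 2.95, 2.47 and 2.65 TPM in the PER-peak hours of replicate 1 and at 1.62, 2.86, 3.48 and 3.19 TPM in those of replicate 2. In the ARNTL-peak hours it was at 2.96, 1.68, 2.70 and 3.27 TPM in replicate 1 and at 4.18, 2.51, 4.27 and 3.99 TPM in replicate 2.

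The windows thus overlapped for ARNTL, and the mean of both series was highest at CT64, which lies outside either window. The difference of -0.07 had a 95% interval of -0.38 to 0.23, was -0.16 in replicate 2 alone and was 0.017 in replicate 1 alone. It was fitted with a rising CT slope of 0.29 per 24 h (limma adjusted p = 0.084). Without the CT term ARNTL was lower in the PER-peak hours in every replicate and cycle, as were 8.33% of all genes. The values were -0.051 and -0.16 in replicate 1 and -0.42 and -0.24 in replicate 2. ARNTL2, its paralog, was at a median of 25.8 and 27.2 TPM with a difference of 0.01 ± 0.090 (SE), which was -0.056 in replicate 1 alone and 0.081 in replicate 2 alone. NPAS2, the paralog of CLOCK, had a mean of 0.208 TPM and was not tested.

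**Figure D2:**
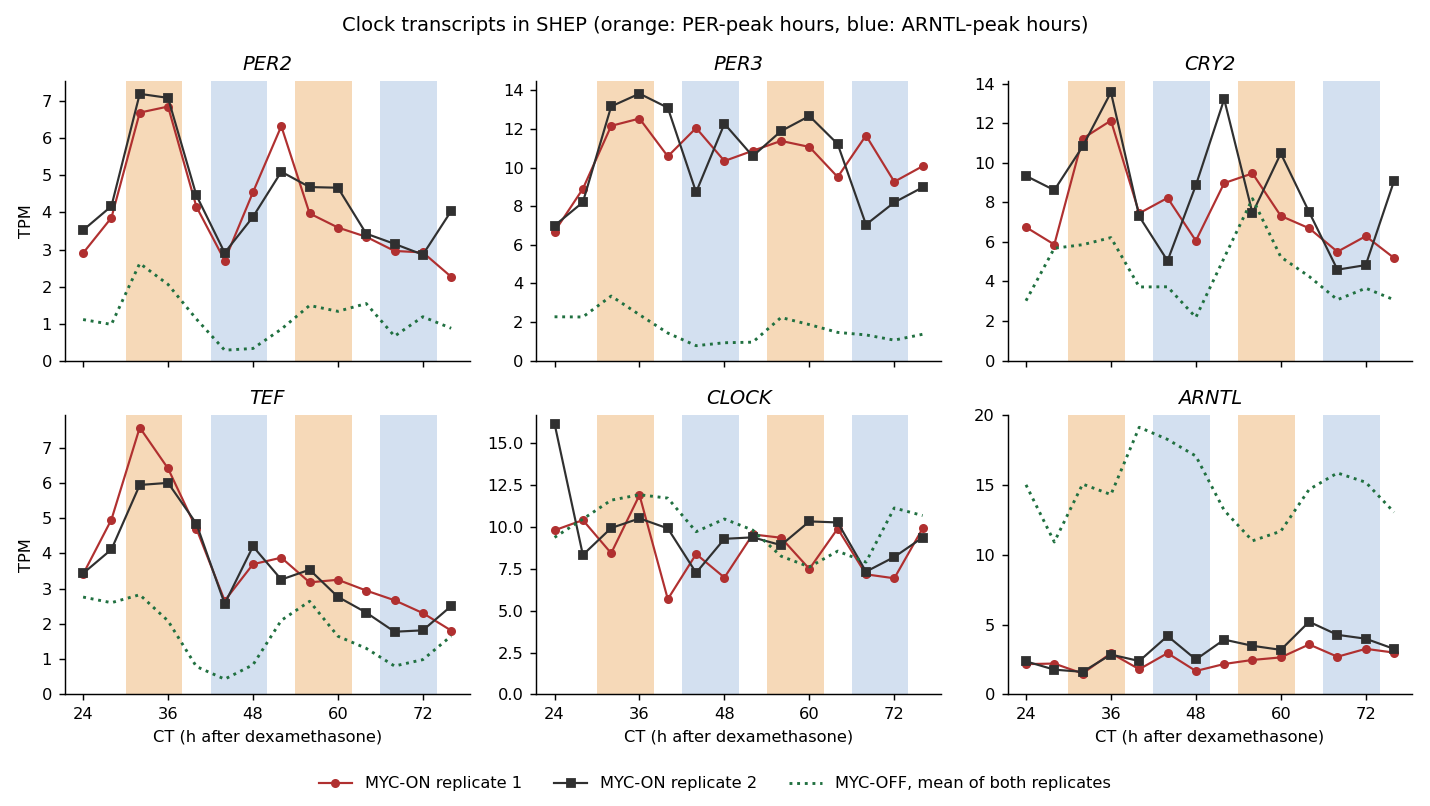
TPM (y axis, from 0) of 6 clock transcripts against CT (x axis, hours), with both SHEP MYC-ON replicates as solid lines, the mean of both MYC-OFF replicates dotted, and bands for the PER-peak (orange) and ARNTL-peak (blue) hours. PER2, CRY2 and TEF are highest in the first orange band in MYC-ON, and ARNTL stays between 1.501 and 5.20 TPM in MYC-ON with no band clearly above another.

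The D-box factors and the second loop gave smaller or mixed values. TEF, an activator of D-box genes on chromosome 22 (41367333 to 41399326), was at 2.77 to 7.57 TPM (median 4.74) in the PER-peak hours and at 1.78 to 4.20 TPM (median 2.62) in the ARNTL-peak hours. Its 4 first-window libraries were the highest of the 16, and the other 4 PER-peak libraries overlapped the ARNTL-peak range, so that the raw difference shrank to 0.31 ± 0.13 (SE, unadjusted p = 0.025) once the falling CT slope of -0.61 per 24 h (adjusted p = 0.0006) was in the model. DBP was at a median of 10.9 and 9.28 TPM (difference 0.19 ± 0.13 SE, with 0.044 in replicate 1 alone and 0.34 in replicate 2 alone), and NFIL3, the repressor at the same sites, at 7.18 and 7.84 TPM (difference -0.15 ± 0.13 SE). HLF had a mean of 0.112 TPM and was not tested.

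Of the nuclear receptors, NR1D1 (REV-ERBα) was at 30.6 to 37.9 TPM and 30.1 to 38.1 TPM, with a difference of -0.01 ± 0.066 (SE) and a 95% interval of -0.15 to 0.13. NR1D2 (REV-ERBβ) differed by 0.10 ± 0.076 (SE) and RORA by 0.07 ± 0.10 (SE), and RORB and CIART had means of 0.0592 and 0.0984 TPM and were not tested. BHLHE40 and BHLHE41, E-box repressors, were at medians of 74.3 and 70.5 TPM and of 19.3 and 19.7 TPM. BHLHE41 spanned 13.8 to 40.2 TPM in the PER-peak hours and differed by 0.22 ± 0.13 (SE), of which 0.034 was seen in replicate 1 alone and 0.41 in replicate 2 alone.

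Over the 16 tested clock genes, 13 had a positive and 3 a negative difference, where 67.8% of all genes had a positive one. The 6 under an unadjusted p of 0.05 were CRY2, PER2, CRY1, CLOCK, TEF and PER3, all higher in the PER-peak hours. Since the hours were chosen with earlier results known, these counts too are a check of the label. Leaving out the CT term and using a factor for the cycle instead (CT32 to CT48 against CT56 to CT72) called 5 of them, CLOCK, CRY2, PER2, PER3 and TEF. That fit leaves the drift within a cycle in the difference, and it called 1053 genes higher (7.36% of those tested) and 177 lower (1.24%). The second cycle alone, with no CT term, called 650 higher (4.53%) and 166 lower (1.16%), with CRY2 as the single clock gene among them. Of the 1053 genes 968 had a falling CT slope at an adjusted limma p of at most 0.05, where 23.2% of all genes had. Of the 177 genes 166 had a rising one, where 12.3% of all genes had. These slopes were fitted on the same 16 libraries and are no separate support, and the cause of the calls was not tested. The median difference of the 1053 genes went from 0.32 with the cycle factor to 0.11 with the linear CT term.

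The same hours in MYC-OFF cells were compared in the same way. Among 14238 genes 0 were called, and 795 (5.58%) were at an unadjusted p under 0.05, 214 higher (1.5%) and 581 lower (4.08%). ARNTL and TEF had the lowest p of all genes. ARNTL was lower in the PER-peak hours by value, at -0.47 ± 0.073 (SE), and TEF higher, at 0.91 ± 0.15 (SE), each with a limma adjusted p of 0.082. In MYC-OFF 7.03% of genes were higher and 8.05% lower in every replicate and cycle, and 0.0562% had windows that did not overlap. Of the negative arm, CRY2 and PER2 were each at 0.87, PER3 at 0.70, CRY1 at 0.56 and PER1 at 0.48, all under an unadjusted p of 0.05. With median-of-ratios rescaling of the libraries, ARNTL and TEF were called in MYC-OFF, with OSGIN1 and C9orf116.

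For these genes the MYC-OFF difference was the larger by value. The difference between conditions was tested as an interaction over 32 libraries, and 0 of 14381 genes passed, with a lowest adjusted p of 0.54 and 869 genes (6.04%) at an unadjusted p under 0.05, 779 higher (5.42%) and 90 lower (0.626%). TEF had the lowest p of the clock genes, with MYC-ON minus MYC-OFF at -0.60 ± 0.19 (SE, unadjusted p = 0.0039, adjusted p = 0.81). PER3 was at -0.48, PER2 at -0.43, CRY1 at -0.39 and CRY2 at -0.39, against 0.39 for ARNTL, 0.41 for CLOCK and 0.46 for BHLHE41, with adjusted p from 0.806 to 0.808. None of these differences between conditions passed the adjusted test. Their sizes depended on the scale and the model. With a pseudocount of 0.1 in place of 1, TEF was at -1.17, PER2 at -1.24 and PER3 at -0.87, since these transcripts are low in MYC-OFF and log2(TPM + 1) compresses low levels. With no CT term ARNTL was at 0.12, PER1 at -0.19, PER2 at -0.23, CRY2 at -0.17 and TEF at -0.28. In that fit CRY1 was further from zero, at -0.53, and PER3 was at -0.44, CLOCK at 0.32 and BHLHE41 at 0.33. With the CT term BHLHE41 was at 0.10 in replicate 1 alone and 0.81 in replicate 2 alone, and CLOCK at 0.66 and 0.15.

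**Figure D3:**
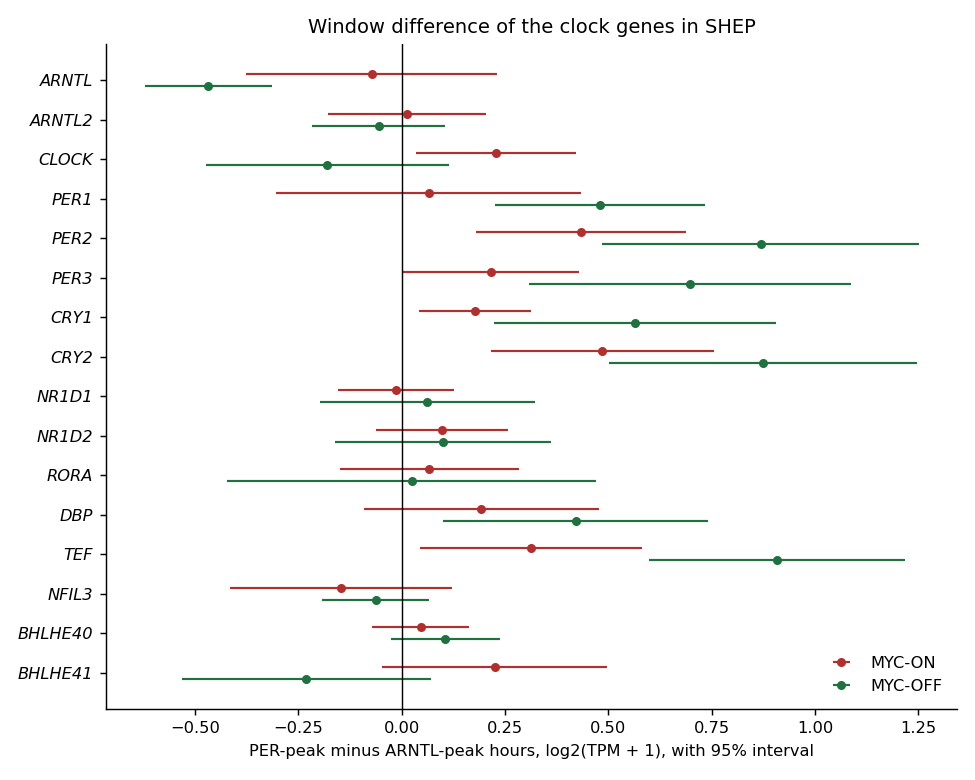
Difference between PER-peak and ARNTL-peak hours (x axis, log2(TPM + 1), points with 95% intervals) for the 16 tested clock genes (y axis), in red for MYC-ON and green for MYC-OFF. The MYC-OFF points of PER1, PER2, PER3, CRY1, CRY2 and TEF lie to the right of the MYC-ON points, and those of ARNTL and CLOCK to the left.

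Outside the clock, the genes with the lowest unadjusted p that were higher in the PER-peak hours in every replicate and cycle were EYA3, EVI5, LMLN, C10orf88, COPA, MTBP, SMARCA2, PANK3 and LYSMD1, with CRY2 as the tenth. None was called. Over all genes 24.6% were higher and 8.33% lower in all 4 combinations of replicate and cycle. EYA3, a phosphatase and transcriptional coactivator on chromosome 1 (27970344 to 28088637, minus strand), had the lowest p of all genes.

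EYA3 was at 10.4 to 13.3 TPM, with a median of 11.2, in the PER-peak hours and at 6.97 to 9.26 TPM, with a median of 8.33, in the ARNTL-peak hours. The windows did not overlap, which held for 4 of the 14316 genes (0.0279%). Its difference was 0.36 ± 0.069 (SE, unadjusted p = 9.22e-05, adjusted p = 0.9998), with 0.36 in replicate 1 alone and 0.35 in replicate 2 alone. In MYC-OFF it was 0.06 ± 0.094 (SE), and the difference between conditions was 0.30 with an adjusted p of 0.81.

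LMLN, which encodes a metalloprotease, also had windows that did not overlap, at 6.74 to 8.93 and 4.29 to 6.18 TPM, and a difference of 0.40 ± 0.095 (SE). SMARCA2, an ATPase of the SWI/SNF chromatin remodelling complex, was at medians of 29.7 and 22.9 TPM, with 7 of 8 PER-peak libraries above every ARNTL-peak library and a difference of 0.32 ± 0.079 (SE). EVI5, a regulator of cytokinesis, was at 21.3 and 15.8 TPM, a difference of 0.43 ± 0.095 (SE), and MTBP, an MDM2-binding protein that acts in replication origin firing, at 4.37 and 2.79 TPM, a difference of 0.36 ± 0.089 (SE). In MYC-OFF the differences of LMLN, SMARCA2, EVI5 and MTBP were between -0.10 and 0.07. These genes, like EYA3, were chosen by their MYC-ON values, so the choice favours a smaller value in MYC-OFF. No gene passed the test between conditions.

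COPA, a coat subunit of the vesicles that run from the Golgi apparatus to the endoplasmic reticulum, had the highest level of the group, at 83.1 to 119 TPM against 76.3 to 87.2 TPM, and a difference of 0.25 ± 0.061 (SE). It was 0.14 in replicate 1 alone and 0.37 in replicate 2 alone. PANK3, a pantothenate kinase of coenzyme A synthesis, differed by 0.24 ± 0.058 (SE) in MYC-ON and by -0.19 ± 0.082 (SE) in MYC-OFF, and its interaction was 0.43 ± 0.10 (SE, unadjusted p = 0.00015, adjusted p = 0.54). C10orf88 and LYSMD1 differed by 0.31 and 0.40. In replicate 1 alone the 10 differences ran from 0.14 (COPA) to 0.48 (LMLN), and in replicate 2 alone from 0.30 (PANK3) to 0.60 (CRY2).

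In the opposite direction, the genes of lowest unadjusted p lower in every replicate and cycle were CDKL3, TRIM29, AC025575.2, OMA1, AAMDC, SLC26A10, AC009804.1, FAHD2CP, ELMO1 and SPA17, none of them called. AC009804.1 and AC025575.2 reached the mean of 1 TPM through the ARNTL-peak hours alone, so their direction was fixed by that filter and they are listed as a description. The means of AC025575.2 were 0.896 TPM in the PER-peak hours and 1.28 TPM in the ARNTL-peak hours. CDKL3, a protein kinase related to the cyclin-dependent kinases, was at 2.72 to 6.18 TPM (median 4.82) in the PER-peak and at 5.04 to 7.85 TPM (median 6.97) in the ARNTL-peak hours. Its difference was -0.36 ± 0.11 (SE, unadjusted p = 0.0038), and in MYC-OFF it was -0.38 ± 0.17 (SE). OMA1, a protease of the inner mitochondrial membrane, was at medians of 9.77 and 12.02 TPM, a difference of -0.32 ± 0.10 (SE), of which -0.48 was seen in replicate 1 alone and -0.16 in replicate 2 alone.

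TRIM29 (median 2.53 against 3.42 TPM) and ELMO1 (2.10 against 3.66 TPM), a regulator of Rac activation, were low in both windows, with differences of -0.42 and -0.38. FAHD2CP, a transcribed pseudogene whose reads may be shared with FAHD2 family copies, had windows that did not overlap, at 7.23 to 9.68 and 9.74 to 16.2 TPM. SLC26A10, annotated as a transcribed pseudogene, was at medians of 1.08 and 3.11 TPM. AC009804.1, a processed pseudogene on chromosome 12 (114929757 to 114929935), was listed at 0 in all 8 PER-peak libraries, at 0 in 3 of the 8 ARNTL-peak libraries and at 2.22 to 4.46 TPM in the other 5, so no fold is given.

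**Figure D4:**
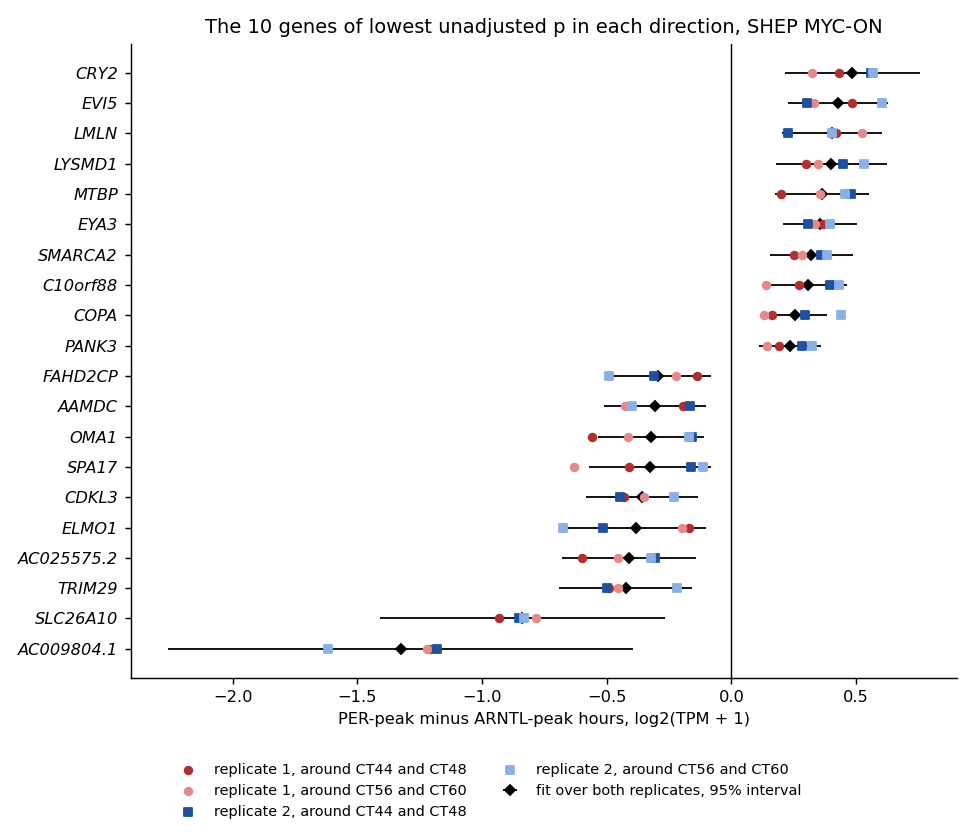
Difference between PER-peak and ARNTL-peak hours (x axis, log2(TPM + 1)) for the 10 genes of lowest unadjusted p in each direction (y axis), with the fit over both replicates and its 95% interval as black diamonds and the 4 trend-balanced values as circles (replicate 1) and squares (replicate 2). All 4 values lie on the side of the fit for each gene shown, as the choice of genes favours, and none of the 20 genes was called. AC009804.1 and AC025575.2 passed the level filter through the ARNTL-peak hours alone.

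Gene lists of cell processes were described by the number of members at each side and by their median, beside the median of 0.04 over all genes. Of all genes 67.8% were higher by value, so a count near that share is no result about a list. Among 43 G1/S and S phase genes, which drive and carry out DNA replication, 41 were higher by value and the median was 0.11. Of the 43, 2 were under an unadjusted limma p of 0.05 in the higher direction, where 2.7% of all genes were. EXO1, an exonuclease of DNA repair, was at medians of 14.5 and 10.3 TPM (0.40 ± 0.13 SE, unadjusted p = 0.0082), and GINS1, a subunit of the replicative helicase, at 14.96 and 11.2 TPM (0.25 ± 0.084 SE, unadjusted p = 0.0088). Among 47 G2 and M phase genes 44 were higher by value with a median of 0.10, and among 30 genes of metaphase chromosome congression 27 were, with a median of 0.11. TOP2A (topoisomerase II, 0.23 ± 0.11 SE) and KNL1 (a kinetochore scaffold, 0.24 ± 0.12 SE) had unadjusted p of 0.054 and 0.057.

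These medians depended on the replicate. In replicate 1 alone the G1/S and S phase list had a median of 0.04, the G2 and M phase list -0.0083 and the metaphase congression list 0.01, beside -0.0021 over all genes. In replicate 2 alone they were 0.20, 0.22 and 0.20, beside 0.08 over all genes, and without the 4 replicate 2 libraries of CT56 to CT72 they were 0.0013, -0.012 and -0.012. Single libraries moved the G2 and M median, which was 0.059 without replicate 2 CT56, 0.058 without replicate 2 CT60 and 0.16 without replicate 1 CT48. In a bulk library, a change in the share of cells in a phase and a change of RNA per cell cannot be told apart.

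In MYC-OFF the G2 and M phase list was on the other side by value, with 0 of 47 members higher, a median of -0.20 and 11 members lower at an unadjusted p under 0.05, where 4.08% of all genes were. The count was 3 with the GC slope as a covariate (median -0.13, 3 of 47 higher), 2 without the 4 replicate 2 libraries of CT56 to CT72 and 7 with rescaling. The median was -0.31 in replicate 1 alone, with 10 such members, and -0.11 in replicate 2 alone, with 1. In the interaction, 14 of the 47 were at an unadjusted p under 0.05 with MYC-ON above MYC-OFF, where 5.42% of all genes were, and none passed the adjusted test.

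Heat shock genes, which encode chaperones, were higher by value in 16 of 17, where 67.8% of all genes were, with a median of 0.09. HSP90AA1 (cytosolic HSP90) was at medians of 1014 and 775 TPM (0.20 ± 0.092 SE, unadjusted p = 0.044), and HSPA1B, which shares reads with its near copy HSPA1A, spanned 21.1 to 102 TPM and 9.99 to 72.8 TPM. This list also drifted. Of its 17 members 14 had a falling CT slope at an adjusted limma p of at most 0.05, where 23.2% of all genes had one. Of the G1/S and S list 34 of 43 had one, with a median slope of -0.45 per 24 h beside -0.04 over all genes.

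Sterol and fatty acid synthesis genes were higher by value in 21 of 25 (median 0.08), where 67.8% of all genes were. INSIG1, the sterol sensor that retains SCAP in the endoplasmic reticulum, was at 0.22 ± 0.091 (SE, unadjusted p = 0.027), and SCD, the stearoyl-CoA desaturase, at 0.15 ± 0.068 (SE, unadjusted p = 0.043). Collagens and matrix genes were higher by value in 18 of 19 (median 0.09), with COL12A1 at 0.14 ± 0.058 (SE, unadjusted p = 0.028) and COL5A1 at 0.19 ± 0.11 (SE). Mesenchymal markers were higher by value in 13 of 14 (median 0.11), with NOTCH2 at 0.16 ± 0.070 (SE, unadjusted p = 0.033), and in the lysosome list (21 of 28, median 0.02) LAMP2 was at 0.16 ± 0.059 (SE) and MITF at 0.27 ± 0.12 (SE). In replicate 1 alone MITF was at 0.017 and LAMP2 at 0.046, against 0.52 and 0.27 in replicate 2 alone, the series with the GC shift. KLF7, in the adrenergic list, was at 0.35 ± 0.11 (SE, unadjusted p = 0.0067).

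The lists of translation and respiration were on the other side of the all-gene median. Cytosolic ribosomal protein genes were higher by value in 20 of 75, where 67.8% of all genes were. Their median was -0.03 with a range of -0.13 to 0.04. Of the 75, 42 had a rising CT slope at an adjusted limma p of at most 0.05, where 12.3% of all genes had one. The 13 mitochondrially encoded transcripts were all lower by value in the PER-peak hours, with a median of -0.13, but in replicate 1 alone 9 of 13 were higher, with a median of 0.05, and in replicate 2 alone the median was -0.30. Without the replicate 2 library of CT56 it was 0.02, without that of CT48 -0.01 and without that of CT44 -0.21. Nuclear subunits of oxidative phosphorylation were split, with 25 of 50 higher and a median of -0.0011, and UQCRB of complex III at -0.11 ± 0.063 (SE).

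MYC targets had a median of 0.03 with 21 of 30 higher, where 67.8% of all genes were. The MYC and MAX network genes had a median of 0.03 with 8 of 9 higher, and both medians were near that of all genes. Nutrient transporters had a median of -0.0017 (4 of 9 higher) and ATF4 stress response genes one of -0.03 (5 of 19 higher), with CHAC1, a glutathione-degrading enzyme, at -0.39 ± 0.19 (SE). Clock modifiers, the kinases and ligases that tune PER and CRY stability, had a median of 0.04 (15 of 18 higher), with FBXW11, a ligase subunit that targets PER proteins, at 0.14 ± 0.060 (SE, unadjusted p = 0.040). Glucocorticoid targets, which respond to the dexamethasone that all cells received, had a median of 0.08 (13 of 17 higher), with FKBP5 at 0.15 ± 0.072 (SE).

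ER folding genes had a median of 0.07, with 16 of 21 higher by value where 67.8% of all genes were. XBP1, a transcription factor of the unfolded protein response, was at -0.15 ± 0.070 (SE, unadjusted limma p = 0.047). The chaperone gene HSPA5 was at 0.12 ± 0.064 (SE). Hypoxia and glycolysis genes had a median of 0.04 (19 of 24 higher), with PDK1, which inhibits pyruvate dehydrogenase, at 0.19 ± 0.080 (SE, unadjusted p = 0.028), which was 0.02 in replicate 1 alone and 0.37 in replicate 2 alone. Interferon response genes had a median of 0.02 (10 of 15 higher), with OAS3 at 0.14 ± 0.076 (SE), and immediate early genes, YAP and SRF targets and replication histones had medians of 0.04, 0.02 and -0.0012. In none of the lists was a member called. Other named members also differed between replicates, with replicate 1 alone before replicate 2 alone. TOP2A was at 0.039 and 0.41, FKBP5 at 0.054 and 0.25, YAP1 at 0.038 and 0.23, SCD at 0.076 and 0.22, COL12A1 at 0.092 and 0.19, and COL5A1 at 0.11 and 0.27. EXO1 was at 0.28 and 0.51, GINS1 at 0.15 and 0.35, HSP90AA1 at 0.12 and 0.28, INSIG1 at 0.16 and 0.29, FBXW11 at 0.081 and 0.19, and OAS3 at 0.081 and 0.20. KLF7, at 0.33 and 0.37, and HSPA5, at 0.11 and 0.12, were close in both. CHAC1 was at -0.50 and -0.29, and at -0.65 without the 4 replicate 2 libraries.

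**Figure D5:**
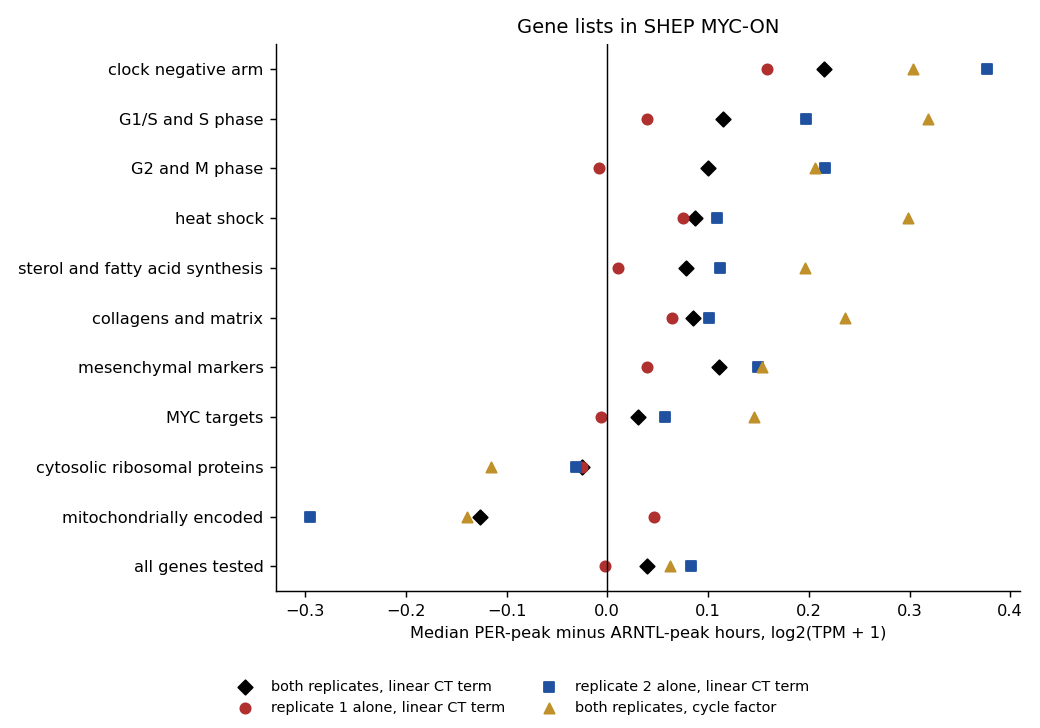
Median difference between PER-peak and ARNTL-peak hours (x axis, log2(TPM + 1)) of 10 gene lists and of all tested genes (y axis) in SHEP MYC-ON, for the fit over both replicates, for each replicate alone and for the fit with a cycle factor in place of the CT term. The clock negative arm, a check of the label since the hours are named for PER genes, is to the right of zero in all 4. The G2 and M and the mitochondrially encoded lists change side between replicates.

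The centre of all genes moved with the scaling and the replicate. In the TPM as deposited 67.8% of genes were higher by value in the PER-peak hours, and with median-of-ratios rescaling 49.8% were, with 188 higher and 222 lower genes at an unadjusted p under 0.05 in place of 386 and 108. In replicate 1 alone 49.1% of genes were higher and in replicate 2 alone 73.6%. The clock negative arm had a median of 0.17 after rescaling, 0.16 in replicate 1 alone and 0.38 in replicate 2 alone. In replicate 1 alone CRY2 was at 0.37, PER2 at 0.32, CRY1 at 0.16, PER3 at 0.054 and PER1 at -0.031. The hours are named for PER genes, so these values are a check of the label and no independent result. The cytosolic ribosomal proteins had 0 of 75 members higher after rescaling. With the GC slope as a covariate 704 genes were higher and 165 lower at an unadjusted p under 0.05, and 0 were called.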

How the data were processed

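The authors quantified poly-A RNA-seq reads with Salmon 1.3.0 on the human genome (GRCh38) and deposited gene-level TPM values for 83 libraries and 60237 genes. These deposited TPM were used as given, and as every column sums to 1000000 no read depth can be recovered. Genes with a mean of at least 1 TPM over the 16 libraries compared were tested on log2(TPM + 1), which understates differences of low genes, with limma 3.58.1 in R 4.3.3 (moderated, with a trend), with terms for window, replicate and linear CT. The condition was added as an interaction over 32 libraries. The steps were tested on simulated data.

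Replicate numbers mark the time series. Deviations correlated at 0.118 within and -0.113 between replicates across windows, and 1914 genes (13.4%) had a replicate term at an adjusted p of at most 0.05, so the replicate was kept as a block. Named genes were the clock genes, the 10 of lowest p in each direction with the same sign in every replicate and cycle, genes of lowest interaction p, and list genes with an unadjusted p under 0.1. The 33 gene lists, the hours and these rules were chosen with earlier results of these data known. Differences in pseudocount, filter, scaling, covariates, CT term and libraries were tried.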

Additional observations from a re-analysis of the deposited data

Results flagged for a closer look

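Of 74 groups of 8 libraries checked by Dixon's test, 4 (5.41%) held a library beyond the test's 95% critical ratio for their size, where chance gives about 1 in 20. The ratio is the gap to the nearest library over the whole range, and for these genes it was taken on the log2(TPM + 1) scale, so it cannot be read off the TPM given. NR1D2 was at 21.9 TPM in replicate 2 at CT72, with the other ARNTL-peak libraries at 16.1 to 18.5 TPM, a ratio of 0.548. BHLHE41 was at 29.5 TPM in the same library, with the others at 15.3 to 20.9 TPM and a ratio of 0.528. CDKL3 was low in replicate 2 at CT44, at 5.04 TPM against 6.7 to 7.85 TPM in the other ARNTL-peak libraries, with a ratio of 0.634. TRIM29 was low in replicate 2 at CT36, at 1.35 TPM against 2.37 to 2.79 TPM in the other PER-peak libraries, with a ratio of 0.753.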

How the results depend on the processing

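Of 32 alternatives for the MYC-ON comparison, 30 called 0 genes in either direction by limma, among them each of the 16 that leave out 1 library, where 227 to 524 genes were higher and 88 to 136 lower at an unadjusted p under 0.05. The cycle factor in place of the CT term called 1053 higher and 177 lower genes with 5 clock genes, and the second cycle alone called 650 and 166 with 1 clock gene. Both leave drift within a cycle in the difference. Without the replicate block 0 genes were called in each comparison, and the block changed no call. In MYC-OFF, rescaling called 3 higher genes and 1 lower, the fit with no CT term 1 higher, and the cycle factor 1 higher and 1 lower. Leaving out a replicate there called between 0 and 1 lower gene. The cycle factor called 273 genes in the test between conditions. The cause of these MYC-OFF and interaction changes was not tested.

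Over 65 named genes and 2060 gene and alternative pairs, 1972 kept their direction and their side of the threshold, 51 were called in the alternative alone (34 with the cycle factor, 17 in the second cycle) and 37 changed sign, all in differences that were not called. ARNTL2 was at -0.03009 with rescaling, -0.009447 with the GC covariate, -0.0218 with no CT term and with the cycle factor, -0.05524 without the replicate 2 libraries of CT56 to CT72, -0.01526 and -0.02835 in the first and second cycle, and -0.003029 over all 28 libraries. NR1D1 was at 0.0003628 with no CT term and with the cycle factor, 0.06234 in the first cycle and 0.03542 over all 28 libraries. RORA was at -0.2272 with no CT term and with the cycle factor, -0.001958 without the 4 replicate 2 libraries, and -0.3152 and -0.1392 in the first and second cycle. MITF was at -0.0009049 and YAP1 at -0.006293 without these libraries, BHLHE40 at -0.01598 over all 28, BHLHE41 at -0.08014 in the first cycle, and CRY1 at -0.01636 and OSGIN1 at 0.06084 in the second. Leaving out a replicate or a library gave ranges of -0.1624 to 0.02805 for ARNTL, -0.0563 to 0.08123 for ARNTL2, -0.03088 to 0.1625 for PER1, -0.06695 to 0.02086 for NR1D1, -0.03649 to 0.1689 for RORA and -0.007848 to 0.09918 for BHLHE40. The cause of these sign changes was not tested.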

Other observations

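Genes outside the clock had the lowest p in the test between conditions, and none passed it (limma adjusted p = 0.54). PLAT, which encodes tissue plasminogen activator, was at 6.29 to 11.2 TPM in the PER-peak hours and 4.44 to 7.35 TPM in the ARNTL-peak hours of MYC-ON, a difference of 0.26 ± 0.10 (SE), while in MYC-OFF the means were 79.1 and 97.0 TPM and the difference was -0.30 ± 0.078 (SE). The difference between conditions was 0.55 ± 0.13 (SE). OSGIN1, an oxidative stress-induced growth inhibitor, had means of 49.8 and 52.2 TPM in MYC-ON and of 13.1 and 10.0 TPM in MYC-OFF, with differences of -0.10 ± 0.11 (SE) and 0.47 ± 0.081 (SE), and -0.56 ± 0.13 (SE) between conditions. XBP1, of the unfolded protein response, was at -0.15 in MYC-ON and 0.16 in MYC-OFF, and OAS3, an interferon-induced enzyme, at 0.14 and -0.22.

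AC027559.1 (1.06) and the low transcripts AC245100.3 (-2.06) and FAM85B (-0.71) were the other genes of lowest p between conditions, with AC245100.3 listed at 0 in at least 1 MYC-ON library.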
